A study of Mus musculus with 4 samples.

Results

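The change from passage 1 (early) to passage 3 (late) was measured in cultured mouse epidermal keratinocytes labelled Casp-8F/–K5-Cre (F/- below), which made up the Cy3 channel of all 4 arrays, 2-colour Agilent mouse arrays, of the study. The part of the data described here is therefore 4 of 8 RNA samples, chosen by genotype and dye: F/- RNA of pairs 1 and 2 at passage 1, and of pairs 1 and 2 at passage 3. The other 4 samples, in Cy5, are keratinocytes labelled Casp-8F/+K5-Cre (F/+ below) at the same passages. By the usual notation, F is a loxP-flanked Casp8 allele, - a null allele and + a wild-type allele; every sample of both genotypes carries a flanked allele and a Cre recombinase under the promoter of keratin 5, a basal layer gene. The age entry of all mice is P3. Cells came from 2 mice of each genotype, were freed with Dispase and trypsin with no sort described, and grew in serum-free keratinocyte medium with bovine pituitary extract and epidermal growth factor. RNA of the cultures was taken at both passages, so the F/- changes below rest on 2 animals. The p-values came from a fit of all 8 samples, so the spread they use is shared with the F/+ cultures. The extent of Casp8 deletion is not given in the sources used here, and whether the Casp8 probe lies in the deleted part is not known either, so its level says nothing of the deletion or the genotype labels. The series title names temporal change in culture. Changes and their SD below were taken within each pair, whereas the p-values came from a fit that left the pair number out.

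Epidermal keratinocytes divide in the basal layer and differentiate as they move outward. Suprabasal cells exchange keratins 5 and 14 for keratins 1 and 10, and the outermost living cells build the cornified envelope from small proline-rich, late cornified envelope and other proteins cross-linked by transglutaminases. In wounds and in culture, keratinocytes take up an activated state with other keratins, migration genes and cytokines. Caspase-8 starts the caspase cascade below death receptors and holds back necroptosis, a lytic form of cell death run by Ripk3 and Mlkl.

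Levels are log2 Cy3 intensities after background correction and normalization, and the passage change is late minus early, given as the mean ± SD over the 2 pairs. The lowest level of a probe well above background lay between 5.95 and 6.17, so falls that end near this level are understated. In Cy3 the share of gene spots well above background ran from 75.8% to 85.4% over the arrays, and no Cy3 spot was saturated. The number of arrays limits the precision. All 4 arrays lay on 1 slide read in 1 scan, so neither separates the passages. The keratinocyte identity of the RNA was read from 8 markers, and each was well above background on every array. Krt5 read 16.95 and 16.79 at passage 1 and 16.57 and 16.65 at passage 3, and Krt14 read 17.15 and 17.07 at passage 1 and 16.81 and 16.89 at passage 3, in pairs 1 and 2 in that order, as in the values below. Neither differed detectably, with differences of -0.27 ± 0.17 and -0.26 ± 0.11 (limma, adjusted p = 0.502 and 0.462). The array values of other cell types are given after the keratinocyte genes.

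Of 33686 probes tested, 1839 passed an adjusted p of 0.05 (limma separate-channel fit, Benjamini-Hochberg), 1024 of them higher and 815 lower at passage 3, which is 5.46%, 3.04% and 2.42% of the probes. "Rose" and "fell" below mean that a gene passed this test. Statements that the passages of a gene do not overlap only describe its levels, and most of these genes were picked for their change. The share of all probes that separate was not counted, and with 2 arrays per passage unchanged genes can separate too. The called probes stood for 1589 genes. Of the called probes 763 rose and 673 fell past 2-fold, and 59 rose and 80 fell past 8-fold. No called probe had opposite signs in the pairs. The count depended on the early arrays: without the early array of pair 1 the count was 115, and without that of pair 2 it was 173, against 3094 without the late array of pair 1 and 1834 without that of pair 2. No direction among the 1839 turned in these or any other setting. The split between higher and lower calls moved with the scaling and with the fit. With each channel scaled to its median 73.8% of calls were higher, against 1024 of 1839 here. A fit of Cy3 alone, on the same normalized values as here, had 49.3% higher, and that fit on the scanner-processed intensity had 26%. The last setting put the median change of all probes at -0.22, and its counts are read relative to that shift.

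**Figure D1:**
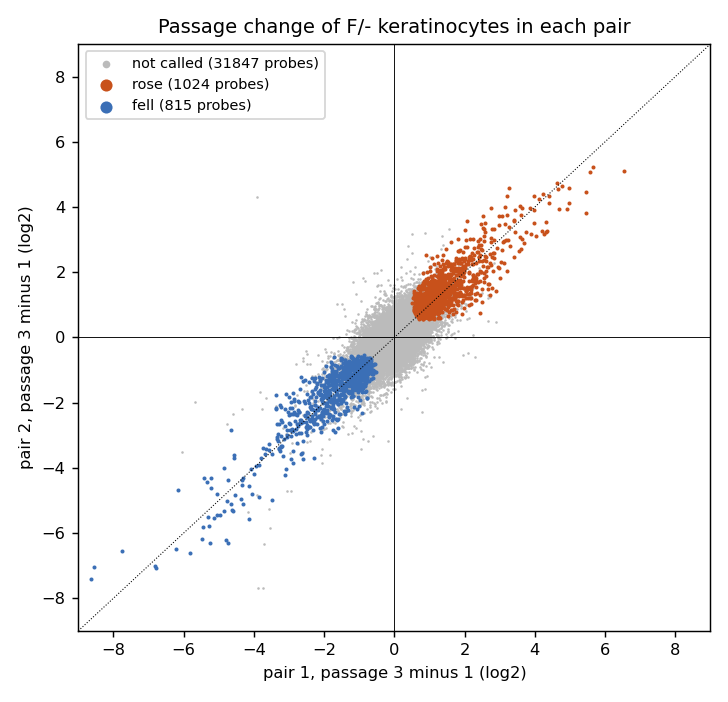
Change from passage 1 to passage 3 in F/- keratinocytes, on the log2 scale, in pair 1 (horizontal) and pair 2 (vertical), 1 point per tested probe, with the dotted line marking equal change. The 1024 called risers and 815 called fallers lie at the upper right and lower left, since no called probe had opposite signs in the pairs.

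The genes that fell farthest were mostly those of the outer epidermis. Of the 12 genes with the largest fall in both pairs, Lce3c, Lce3f, Cnfn, Sprr1a, Sprr1b and Kprp encode cornified envelope or outer epidermal proteins, Krtdap and Calm4 are made in differentiating keratinocytes, and Degs2 makes hydroxylated ceramides, lipids of the barrier. The other three of the 12 are Defb14, a secreted antimicrobial beta-defensin, Il1f5, the antagonist of the IL-36 receptor, and Gsdma, a pore-forming gasdermin. All 12 were well above background on every array, and their falls ranged from 30.3-fold to 260.2-fold. All 12 had early levels above both late levels, which their choice by large falls in both pairs all but ensured.

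Lce3c, a late cornified envelope protein, read 16.62 and 15.44 at passage 1 and 7.98 and 8.03 at passage 3. It fell by 8.02 ± 0.87, or 260.2-fold (adjusted p = 0.00101). The late levels of both pairs lay far below the early ones. Its relative Lce3f read 15.50 and 14.16 at passage 1 and 7.75 and 7.61 at passage 3 and fell by 7.15 ± 0.84 (adjusted p = 0.00155). Late cornified envelope genes are near-identical in part, and so are small proline-rich genes, so probes of these families can read more than 1 member. Cnfn, which encodes cornifelin, read 15.23 and 15.53 at passage 1 and 8.44 and 8.44 at passage 3 and fell by 6.94 ± 0.21 (adjusted p = 0.00015). The pairs were closer for Cnfn than for the Lce3 genes, where the early level of pair 1 exceeded that of pair 2. Sprr1a, a small proline-rich envelope precursor, read 15.29 and 15.49 at passage 1 and 9.47 and 8.89 at passage 3 and fell by 6.21 ± 0.55 (adjusted p = 0.00197). Sprr1b read 13.72 and 13.62 at passage 1 and 8.27 and 7.80 at passage 3 and fell by 5.63 ± 0.26 (adjusted p = 0.00115). For both Sprr1 genes the passages were far apart in each pair. Kprp, a proline-rich protein of keratinocytes, read 13.04 and 13.43 at passage 1 and 7.75 and 7.63 at passage 3 and fell by 5.55 ± 0.36 (adjusted p = 0.000521). Krtdap, a secreted peptide of differentiating keratinocytes, read 12.02 and 12.38 at passage 1 and 6.89 and 6.83 at passage 3 and fell by 5.34 ± 0.30 (adjusted p = 0.00163). The early and late levels of Krtdap did not overlap. Calm4, a calmodulin-like skin protein, read 14.42 and 15.03 at passage 1 and 8.93 and 8.84 at passage 3 and fell by 5.84 ± 0.50 (adjusted p = 0.000219). Degs2 read 13.99 and 13.77 at passage 1 and 7.78 and 7.28 at passage 3 and fell by 6.35 ± 0.20 (adjusted p = 0.000451). Calm4 and Degs2 did not overlap between passages. Defb14 read 14.29 and 14.41 at passage 1 and 7.47 and 7.38 at passage 3 and fell by 6.92 ± 0.14 (adjusted p = 0.000704). Il1f5 read 13.63 and 14.09 at passage 1 and 8.66 and 8.63 at passage 3 and fell by 5.21 ± 0.35 (adjusted p = 0.000521). Gsdma, the least changed of the 12, read 13.19 and 13.05 at passage 1 and 8.15 and 8.24 at passage 3 and fell by 4.92 ± 0.16 (adjusted p = 0.00015), and its second probe fell by 4.68 ± 0.21. Without the early array of pair 1, Defb14, Degs2, Krtdap, Sprr1a and Sprr1b no longer passed, and without that of pair 2, Defb14, Krtdap, Sprr1a and Sprr1b did not.

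**Figure D2:**
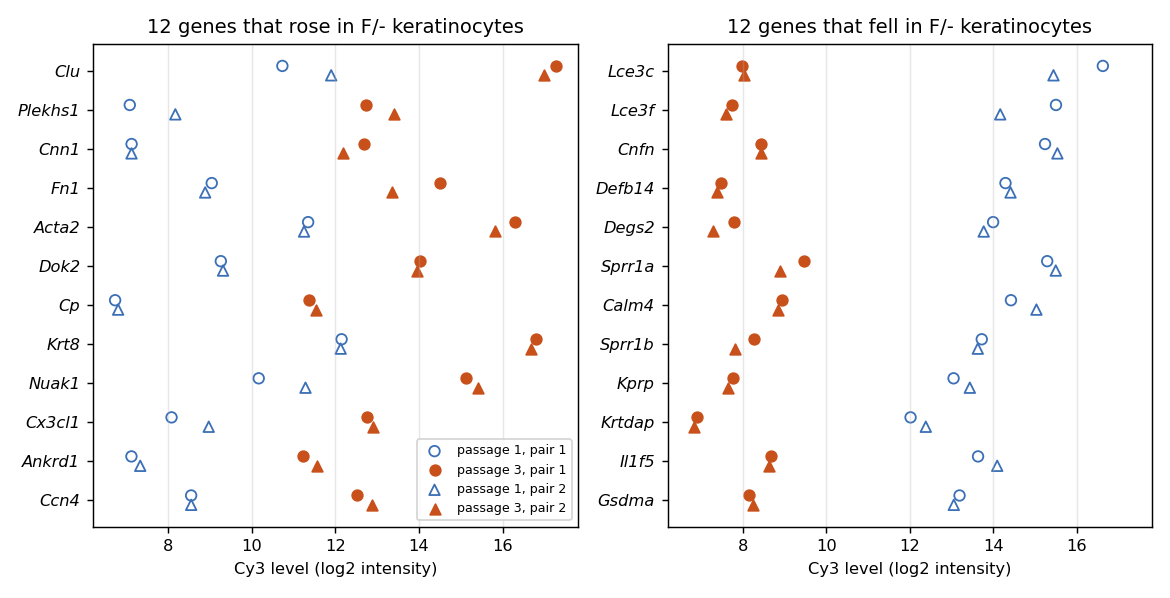
Cy3 level (log2 intensity, horizontal) of the 12 genes that rose and the 12 that fell most in F/- keratinocytes; open blue symbols are passage 1, filled orange symbols passage 3, circles pair 1 and triangles pair 2. The passage 1 and passage 3 symbols do not overlap for any gene, since the genes were chosen for large changes in both pairs.

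Over the whole list of suprabasal and cornified envelope genes, 22 of 39 members tested fell and 0 rose, against 2.69% of 22820 genes falling and 3.48% rising (1 probe each), the background for the list counts that follow. The median change of the list was -2.03, against 0.02 over all genes. Beside those above, the fallers included enzymes and regulators of the envelope. Tgm1, the transglutaminase that cross-links it, read 12.55 and 12.93 at passage 1 and 8.55 and 8.74 at passage 3 and fell by 4.09 ± 0.13 (adjusted p = 0.00104). Klk7, a protease that sheds corneocytes, read 15.09 and 16.54 at passage 1 and 10.94 and 10.96 at passage 3 and fell by 4.86 ± 1.01 (adjusted p = 0.00794). Asprv1, a protease that processes filaggrin, read 16.06 and 16.89 at passage 1 and 13.46 and 13.15 at passage 3 and fell by 3.17 ± 0.81 (adjusted p = 0.0241). All 3 enzymes had separate passages. Spink5, an inhibitor of such proteases, read 11.76 and 12.36 at passage 1 and 6.99 and 7.36 at passage 3 and fell by 4.89 ± 0.16 (adjusted p = 0.00139). Cdsn, the adhesive corneodesmosin, read 11.32 and 12.31 at passage 1 and 7.01 and 7.20 at passage 3 and fell by 4.71 ± 0.57 (adjusted p = 0.00258). Of the secreted epidermal proteins Sbsn and Dmkn, the former fell by 4.43 ± 0.52 and the latter fell by 3.52 ± 0.07. The transcription factor Ovol1, which restrains progenitor growth, read 11.45 and 11.56 at passage 1 and 7.66 and 7.87 at passage 3 and fell by 3.74 ± 0.07 (adjusted p = 0.00015). Lor, the main protein of the envelope, read 10.99 and 10.98 at passage 1 and 9.04 and 8.88 at passage 3 and fell by 2.03 ± 0.11 (adjusted p = 0.0118).

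The fall did not cover the whole list. Ivl, involucrin, an early envelope protein, read 9.45 and 9.23 at passage 1 and 9.84 and 10.12 at passage 3, a difference of 0.64 ± 0.36 that did not pass (adjusted p = 0.177). Sprr2a1, another small proline-rich gene, read 15.42 and 15.58 at passage 1 and 15.44 and 15.49 at passage 3, a difference of -0.04 ± 0.08 (adjusted p = 0.937). Krt1, the first suprabasal keratin, read 7.57 and 7.90 at passage 1 and 7.43 and 7.68 at passage 3, a difference of -0.19 ± 0.06 (adjusted p = 0.597). For Sprr2a1 the passages overlapped, while Ivl was higher late in both pairs. Krt10, the partner of Krt1, read 10.95 and 10.32 at passage 1 and 8.62 and 8.26 at passage 3, apart in both pairs, but its difference of -2.19 ± 0.18 did not pass (adjusted p = 0.118), and its second probe had a difference of -0.70. Flg, filaggrin, read 8.30 and 9.98 at passage 1 and 6.25 and 6.12 at passage 3 and was not well above background at passage 3; it was at least 7.6-fold higher at passage 1 (bright group's mean over the floor of the dim arrays), with an adjusted p of 0.0938 that did not pass. Rptn, called as a fall, was also not well above background late and at least 2.81-fold higher early. Without the early array of pair 1 the list held 12 falls, and without that of pair 2 it held 13; the 12, Calm4, Cdsn, Cnfn, Dmkn, Flg, Klk5, Klk7, Lce1a1, Lce1a2, Ovol1, Sbsn and Tgm1, are among the 13.

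The promoters of the fallers in this list were read for the letters TGANTCA, the form bound by AP-1 factors such as Fos and Jun, which act on many epidermal genes. The RefSeq table (assembly GRCm38.p6) holds 17 of the 22 fallers, and 7 of these 17 (Dmkn, Krtdap, Lor, Rptn, Sbsn, Sprr1a and Sprr1b) have a match in the 250 bases before the start, against 6.87% of 27025 promoters of that length. The letters read the same on both strands, and a match is a description of the sequence and not of binding. The share among list members that did not fall was not counted, so the matches are not tied to the fall. Sprr1a and Sprr1b lie near each other on chr3, and Krtdap and Sbsn on chr7, so their matches may not be independent. The windows of 5 are printed 5′ to 3′ on the gene's strand, in lower case with the matches in capitals. Sprr1a, at chr3:92485882-92486131 on the minus strand, has matches that begin 146 and 116 bases before the start; Sprr1b, at chr3:92438780-92439029 on the minus strand, has 1 at 111 bases. Krtdap, at chr7:30787655-30787904 on the plus strand, has 1 at 81 bases, and Sbsn, at chr7:30751221-30751470 on the plus strand, has 1 at 119 bases. Lor, at chr3:92083143-92083392 on the minus strand, has 1 at 48 bases.
Sprr1a: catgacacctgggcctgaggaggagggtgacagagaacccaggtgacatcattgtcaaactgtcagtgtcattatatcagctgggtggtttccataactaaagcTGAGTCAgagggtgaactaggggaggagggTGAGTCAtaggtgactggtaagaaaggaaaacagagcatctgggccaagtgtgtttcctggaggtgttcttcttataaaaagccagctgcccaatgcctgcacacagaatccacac
Sprr1b: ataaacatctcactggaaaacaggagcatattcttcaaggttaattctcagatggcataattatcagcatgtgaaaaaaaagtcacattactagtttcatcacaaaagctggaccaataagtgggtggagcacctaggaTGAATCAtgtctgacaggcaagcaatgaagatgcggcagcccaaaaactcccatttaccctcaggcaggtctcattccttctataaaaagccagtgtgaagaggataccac
Krtdap: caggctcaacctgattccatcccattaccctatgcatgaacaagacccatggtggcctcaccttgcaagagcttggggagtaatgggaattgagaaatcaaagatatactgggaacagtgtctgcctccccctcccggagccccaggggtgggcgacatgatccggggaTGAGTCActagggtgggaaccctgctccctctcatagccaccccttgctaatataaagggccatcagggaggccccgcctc
Sbsn: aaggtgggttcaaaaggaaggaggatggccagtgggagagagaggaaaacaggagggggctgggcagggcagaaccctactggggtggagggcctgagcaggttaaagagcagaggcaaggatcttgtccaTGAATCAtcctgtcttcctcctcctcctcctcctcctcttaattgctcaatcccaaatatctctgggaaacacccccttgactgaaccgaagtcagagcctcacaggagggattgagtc
Lor: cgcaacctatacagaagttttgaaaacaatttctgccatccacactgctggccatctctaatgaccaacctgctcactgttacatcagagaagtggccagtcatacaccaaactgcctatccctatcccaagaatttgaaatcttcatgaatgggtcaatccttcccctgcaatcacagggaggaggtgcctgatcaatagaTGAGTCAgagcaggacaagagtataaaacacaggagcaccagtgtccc

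Stress keratins and alarmins, the genes that wounded and inflamed epidermis makes, were split. Of 18 members tested 8 fell and 1 rose, with a median change of -1.42. Beside Defb14, Krt16, a keratin of activated keratinocytes, read 16.32 and 16.56 at passage 1 and 14.29 and 14.14 at passage 3 and fell by 2.22 ± 0.27 (adjusted p = 0.00099). Of the IL-36 receptor agonists, Il1f6 fell by 3.004 ± 0.50 and Il1f9 fell by 2.58 ± 0.30. S100a9, a subunit of calprotectin, read 14.76 and 14.10 at passage 1 and 11.49 and 12.03 at passage 3 and fell by 2.67 ± 0.84 (adjusted p = 0.0464), while its partner S100a8 had a difference of 0.68 ± 1.07 with opposite signs in the pairs (adjusted p = 0.455). Krt17 and Krt6a, which accompany Krt16 in wounds, had differences of 0.08 ± 0.06 and -0.50 ± 0.45 that did not pass. Lcn2, an iron-binding antimicrobial lipocalin, read 6.75 and 6.53 at passage 1 and 9.22 and 10.02 at passage 3 and rose by 2.98 ± 0.72 (adjusted p = 0.00126). Without the early array of pair 1, and likewise without that of pair 2, Krt16 and Stfa3 were the 2 members that passed; S100a9 did not pass with the pair number as a block.

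The genes that rose farthest encode proteins of several kinds. The 12 with the largest rise in both pairs included the actin regulators and muscle-type genes Cnn1 and Acta2, the matrix and matricellular genes Fn1 and Ccn4, the simple epithelial keratin Krt8, the secreted proteins Clu and Cp, the chemokine Cx3cl1, the kinase Nuak1, the adaptor Dok2, the transcriptional cofactor Ankrd1, and Plekhs1, a pleckstrin homology domain gene. The passages did not overlap in any of the 12, which their choice by large rises in both pairs all but ensured. The rises ranged from 17.8-fold to 56.5-fold.

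Clu, the secreted chaperone clusterin, read 10.73 and 11.90 at passage 1 and 17.28 and 16.98 at passage 3 and rose by 5.82 ± 1.03 (adjusted p = 0.00111). The pairs differed more at passage 1 than at passage 3. Krt8, which pairs with Krt18 in simple epithelia, read 12.15 and 12.12 at passage 1 and 16.80 and 16.68 at passage 3 and rose by 4.61 ± 0.07 (adjusted p = 0.000205). Krt18 read 14.25 and 14.16 at passage 1 and 16.23 and 16.51 at passage 3 and rose by 2.16 ± 0.25 (adjusted p = 0.00197). Both keratins were higher late in both pairs, and a second Krt8 probe rose by 4.31 ± 0.12. Among the 7 simple epithelial keratins Krt23 read 13.24 and 13.82 at passage 1 and 8.62 and 8.52 at passage 3 and fell by 4.96 ± 0.48 (adjusted p = 0.00113). Krt80 read 11.49 and 12.65 at passage 1 and 9.18 and 9.80 at passage 3 and fell by 2.58 ± 0.38 (adjusted p = 0.0335). Krt7 and Krt19 had differences of 0.94 ± 0.19 and 1.01 ± 0.87 that did not pass, and the list's median was 0.94. With either early array left out, Krt8 and Krt23 still passed and Krt18 and Krt80 did not. Dok2, an adaptor that dampens receptor kinase signalling, read 9.25 and 9.31 at passage 1 and 14.03 and 13.96 at passage 3 and rose by 4.72 ± 0.09 (adjusted p = 0.00015). Cp, the copper-binding ferroxidase ceruloplasmin, read 6.72 and 6.80 at passage 1 and 11.37 and 11.52 at passage 3 and rose by 4.68 ± 0.06 (adjusted p = 0.000505). Both rose nearly alike in the pairs. Plekhs1 read 7.07 and 8.17 at passage 1 and 12.73 and 13.40 at passage 3 and rose by 5.45 ± 0.30 (adjusted p = 0.00642). Nuak1, an AMPK-related kinase, read 10.16 and 11.28 at passage 1 and 15.12 and 15.42 at passage 3 and rose by 4.55 ± 0.58 (adjusted p = 0.00513); a second probe rose by 3.74 ± 0.67, and another, dim one had a difference of 0.34 ± 0.31. Of the 12, Ccn4, Cnn1, Cp, Cx3cl1 and Fn1 no longer passed without the early array of pair 1, and Ccn4 and Fn1 did not without that of pair 2.

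Contractile genes, which smooth muscle and myofibroblasts make, rose in part. Of 15 members tested 5 rose and 0 fell, against 3.48% and 2.69% of all genes, with a median of 0.52. Cnn1, calponin, which binds actin filaments, read 7.12 and 7.12 at passage 1 and 12.69 and 12.18 at passage 3 and rose by 5.32 ± 0.36 (adjusted p = 0.000521). Tagln, transgelin, read 11.74 and 11.57 at passage 1 and 15.59 and 15.54 at passage 3 and rose by 3.91 ± 0.08 (adjusted p = 0.00015). Myl9, a regulatory myosin light chain, read 10.67 and 10.50 at passage 1 and 14.65 and 14.42 at passage 3 and rose by 3.95 ± 0.04 (adjusted p = 0.00015). The passages of all 3 were far apart in each pair. Tpm2, a tropomyosin, read 14.59 and 14.78 at passage 1 and 16.59 and 16.30 at passage 3 and rose by 1.76 ± 0.34 (adjusted p = 0.0227). Lmod1, leiomodin, read 7.93 and 7.91 at passage 1 and 9.03 and 9.16 at passage 3 and rose by 1.17 ± 0.11 (adjusted p = 0.00638). The 4 Acta2 probes disagreed: 1 read 11.35 and 11.25 at passage 1 and 16.31 and 15.82 at passage 3 and rose by 4.77 ± 0.28 (adjusted p = 0.000155), another rose by 4.37 ± 0.06, the brightest read 15.25 and 15.46 at passage 1 and 16.25 and 14.68 at passage 3 with a difference of 0.11 ± 1.25, and the dimmest had a difference of 0.22 ± 0.40. Actin genes are near-identical in their coding sequence, and the brightest probe, which stands for the gene in the list, may read other actins. Desmin (Des) and Myocd, the smooth muscle cofactor, stayed near the floor at both passages, with differences of -0.20 ± 0.17 and -0.03 ± 0.28. Without the early array of pair 1, Myl9 and Tagln passed, and without that of pair 2, Cnn1, Myl9 and Tagln did.

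The letters of the CArG box, the 10-base element bound by serum response factor in muscle promoters, were looked for in the 250 bases before the start of 4 of these 5 risers found in the table. Myl9 alone held a match, on either strand, against 1.4% of all promoters; its window, at chr2:156775214-156775463 on the plus strand, has the box (in capitals) 161 bases before the start.
Myl9: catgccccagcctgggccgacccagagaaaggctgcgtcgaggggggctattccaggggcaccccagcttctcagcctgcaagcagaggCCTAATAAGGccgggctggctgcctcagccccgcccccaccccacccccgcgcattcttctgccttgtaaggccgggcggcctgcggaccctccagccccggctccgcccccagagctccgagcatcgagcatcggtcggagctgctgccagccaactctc

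Genes of the TGF-beta pathway, which drives matrix production and restrains epithelial growth, rose more often than they fell. Of 23 members tested 7 rose and 1 fell, against 3.48% and 2.69% of all genes, with a median of 0.40. Among ligands, Tgfb3 read 8.95 and 8.88 at passage 1 and 12.35 and 12.49 at passage 3 and rose by 3.50 ± 0.14 (adjusted p = 0.00015). Tgfb2 read 6.71 and 6.98 at passage 1 and 7.91 and 7.85 at passage 3 and rose by 1.03 ± 0.23 (adjusted p = 0.0319), and Tgfb1 had a difference of 0.25 ± 0.24 that did not pass. The receptor Tgfbr1 rose by 1.24 ± 0.10, the signal transducer Smad3 by 1.45 ± 0.01, and Ltbp3, which tethers latent ligand to matrix, by 1.13 ± 0.17. Thbs1, thrombospondin, which can activate latent ligand, read 12.14 and 12.19 at passage 1 and 16.02 and 15.35 at passage 3 and rose by 3.52 ± 0.50 (adjusted p = 0.00197). Ccn2, connective tissue growth factor, read 13.98 and 14.71 at passage 1 and 16.93 and 16.87 at passage 3 and rose by 2.56 ± 0.56 (adjusted p = 0.0195). These 7 were higher late in both pairs. Fst, follistatin, which traps activins, read 14.26 and 14.22 at passage 1 and 11.32 and 11.88 at passage 3 and fell by 2.64 ± 0.43 (adjusted p = 0.00404). Tgfb3 passed with either early array left out and Ccn2 without that of pair 2, while the others of the 8 passed in neither case. A second Tgfbr1 probe had a difference of -0.03.

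Single genes of the matrix and of mesenchymal cells rose. Fn1, fibronectin, read 9.04 and 8.88 at passage 1 and 14.50 and 13.35 at passage 3 and rose by 4.97 ± 0.70 (adjusted p = 0.000704); a second probe rose by 4.64 ± 1.16, and another, dim probe had a difference of 1.18 ± 0.78 that did not pass. Fn1 was the 1 riser among 18 mesenchymal genes tested, 0 of which fell; with the pair number as a block 3 rose, Zeb1 among them, and with either early array left out 0 did. Vim, vimentin, read 14.05 and 13.77 at passage 1 and 13.68 and 13.04 at passage 3, a difference of -0.55 ± 0.26 that did not pass (adjusted p = 0.645). Snai2 and Twist1, transcription factors of epithelial-mesenchymal transition, had differences of 0.07 ± 0.09 and 0.005 ± 0.10, and Zeb1 of 0.91 ± 0.0046, without passing. Ccn4, a matricellular target of Wnt signalling, read 8.54 and 8.54 at passage 1 and 12.51 and 12.89 at passage 3 and rose by 4.15 ± 0.27 (adjusted p = 0.00113). Ankrd1, a cofactor that responds to mechanical load through YAP, read 7.11 and 7.32 at passage 1 and 11.23 and 11.57 at passage 3 and rose by 4.18 ± 0.09 (adjusted p = 0.000205). The passages of neither overlapped. The letters GGAATG, the core bound by the TEAD partners of YAP, occur 2 times before the start of Ankrd1 (chr19:36119845-36120094, minus strand, in capitals 210 and 123 bases before the start), on either strand, while 12.6% of all promoters hold a match. Among the genes with the largest changes that the table holds, 2 of 8 risers (Acta2 and Ankrd1) and 3 of 9 fallers (Calm4, Il1f5 and Sprr1b) have one.
Ankrd1: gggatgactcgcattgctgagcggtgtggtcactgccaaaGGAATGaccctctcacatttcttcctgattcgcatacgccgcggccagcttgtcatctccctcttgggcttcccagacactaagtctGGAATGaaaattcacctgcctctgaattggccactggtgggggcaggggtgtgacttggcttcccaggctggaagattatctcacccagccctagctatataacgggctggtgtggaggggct

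Of 20 genes of matrix metalloproteinases and the plasminogen system, 3 rose and 0 fell. Plau, urokinase, which activates plasminogen, read 10.98 and 10.14 at passage 1 and 13.51 and 13.87 at passage 3 and rose by 3.13 ± 0.85 (adjusted p = 0.013). Mmp11 rose by 1.70 ± 0.06, and the inhibitor Timp1 by 1.47 ± 0.14. The collagenase Mmp13 read 13.21 and 12.38 at passage 1 and 10.38 and 10.32 at passage 3, lower late in both pairs, with a difference of -2.45 ± 0.54 that did not pass (adjusted p = 0.184). With either early array left out, 0 of the list passed; with the pair number as a block, 4 rose and 2 fell, Mmp13 among them.

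Among 20 basal keratinocyte genes, 1 rose and 1 fell, and the list's median of -0.13 had opposite signs in the pairs (0.04 and -0.10). Postn, periostin, a matrix protein, read 8.36 and 8.28 at passage 1 and 11.78 and 11.86 at passage 3 and rose by 3.50 ± 0.12 (adjusted p = 0.000219); its second probe had a difference of 0.21. Cxcl14, a chemokine of healthy epithelium, read 11.65 and 11.76 at passage 1 and 9.62 and 9.53 at passage 3 and fell by 2.13 ± 0.14 (adjusted p = 0.011). The hemidesmosome genes Itgb4 and Col17a1 had differences of 0.12 ± 0.07 and -0.60 ± 0.05 and Trp63, the p63 transcription factor, of -0.56 ± 1.12, with none passing. Of 20 epithelial junction genes 2 rose and 4 fell. The desmosomal cadherins went both ways, since Dsc2 fell by 1.21 ± 0.23 and Dsc3 fell by 1.25 ± 0.30 while Dsg2 rose by 0.74 ± 0.14. Claudins did too: the tight junction gene Cldn1 fell by 1.20 ± 0.10, and Cldn7 read 12.95 and 13.58 at passage 1 and 15.44 and 15.06 at passage 3 and rose by 1.99 ± 0.71. Cdh1, E-cadherin, read 14.19 and 15.11 at passage 1 and 15.17 and 15.45 at passage 3, higher late in both pairs, with a difference of 0.66 ± 0.45 that did not pass. Postn passed with either early array left out; Cxcl14 and the 6 junction genes did not. With the pair number as a block Cldn1 and Dsg2 did not pass.

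**Figure D3:**
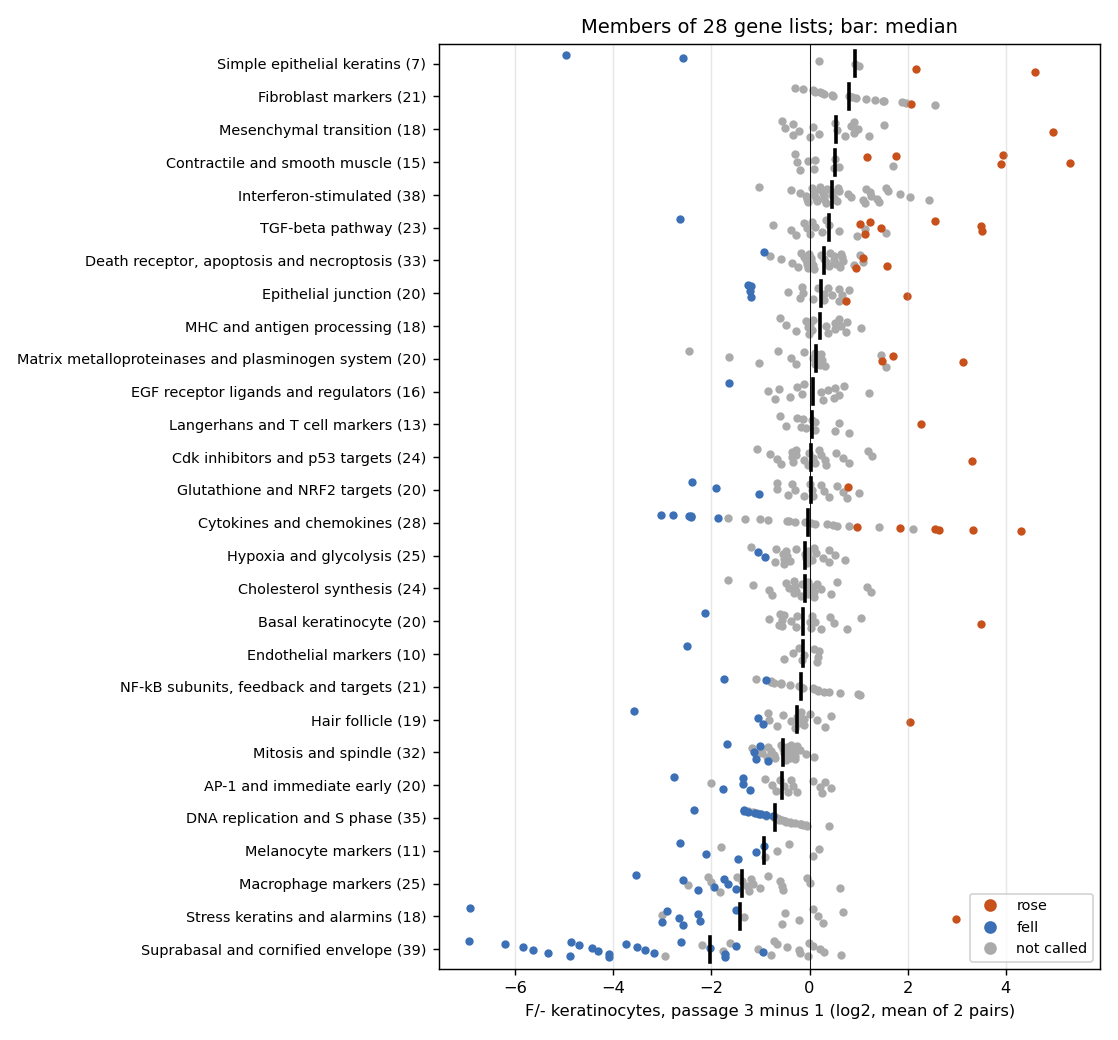
Change from passage 1 to passage 3 in F/- keratinocytes (log2, mean of 2 pairs, horizontal) of each tested member of 28 gene lists, 1 point per gene, coloured by call, with a black bar at the list's median and the number tested in brackets. The suprabasal and cornified envelope list has the lowest median, -2.03, and the simple epithelial keratins, 0.94, the highest, with called members on both sides.

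Genes of cell division were lower at passage 3 by small amounts. Of 32 mitosis and spindle genes 5 fell and 0 rose, with a median of -0.54, against 0.02 over all genes. The mean change was below 0 in 31 of 32, but the share of all genes below 0 was not counted. Plk1, a mitotic kinase, read 13.22 and 13.36 at passage 1 and 12.15 and 12.17 at passage 3 and fell by 1.13 ± 0.08 (adjusted p = 0.0405). Aurkb read 9.90 and 10.05 at passage 1 and 7.74 and 8.84 at passage 3 and fell by 1.68 ± 0.67 (adjusted p = 0.0371), and Cdca8, its partner in the chromosomal passenger complex, fell by 1.09 ± 0.08. The cyclin Ccna2 fell by 1.02 ± 0.14 and the kinase Aurka fell by 0.84 ± 0.05, the latter at an adjusted p of 0.0496, just under the threshold. Mki67, the proliferation marker, read 12.78 and 13.25 at passage 1 and 12.23 and 12.37 at passage 3, a difference of -0.72 ± 0.24 that did not pass (adjusted p = 0.155). Of 35 DNA replication genes 10 fell and 0 rose, with a median of -0.70. Rfc4, a clamp loader subunit, read 12.07 and 12.07 at passage 1 and 10.59 and 10.89 at passage 3 and fell by 1.33 ± 0.22 (adjusted p = 0.0246). Mcm5, a subunit of the replicative helicase, read 13.60 and 13.34 at passage 1 and 12.21 and 12.07 at passage 3 and fell by 1.33 ± 0.09 (adjusted p = 0.0288). The passages of Rfc4 and Mcm5 did not overlap. These counts moved with the processing. With each channel scaled to its median, 0 mitosis and 1 replication gene passed; without the early array of pair 1, 0 and 0 passed, and without that of pair 2, 0 and 1. With the pair number as a block 3 mitosis and 4 replication genes fell, and Plk1, Cdca8, Ccna2, Aurka and Mcm5 did not pass.

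Among 24 Cdk inhibitors and p53 targets, 1 rose and 0 fell, near the 3.48% and 2.69% of all genes. Cdkn2a, the locus of the growth arrest proteins p16 and p19, read 5.94 and 6.01 at passage 1 and 9.09 and 9.50 at passage 3; it was not well above background on either early array, and was at least 9.29-fold higher at passage 3 (adjusted p = 0.00143). The call was lost with either early array left out. Cdkn1a, p21, read 14.14 and 14.28 at passage 1 and 13.99 and 13.27 at passage 3, a difference of -0.58 ± 0.60 that did not pass (adjusted p = 0.293), and the list's median was 0.03.

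Cytokine and chemokine genes went both ways, with 6 risers and 6 fallers among 28 tested. Cx3cl1, fractalkine, a membrane-bound chemokine for monocytes and T cells, read 8.07 and 8.96 at passage 1 and 12.76 and 12.90 at passage 3 and rose by 4.31 ± 0.53 (adjusted p = 0.00167), while its second, dim probe had a difference of -0.17. Csf2, GM-CSF, read 9.43 and 9.85 at passage 1 and 12.71 and 13.24 at passage 3 and rose by 3.33 ± 0.08 (adjusted p = 0.00311). Il23a, a subunit of IL-23, read 9.37 and 8.98 at passage 1 and 11.62 and 12.003 at passage 3 and rose by 2.64 ± 0.54 (adjusted p = 0.00249). None of these 3 overlapped between passages. Csf1, the macrophage growth factor, read 12.12 and 12.36 at passage 1 and 15.10 and 14.49 at passage 3 and rose by 2.55 ± 0.59 (adjusted p = 0.0149). On the other side Il33, an alarm cytokine held in the nucleus, read 9.99 and 9.79 at passage 1 and 6.63 and 7.59 at passage 3 and fell by 2.78 ± 0.83 (adjusted p = 0.00565). Il1rn, the IL-1 receptor antagonist, fell by 2.42 ± 0.83, and the neutrophil chemokine Cxcl2 fell by 2.42 ± 0.95. Ccl27a, a skin chemokine for T cells, fell by 2.46 ± 0.14. Ccl9, which macrophages also make, read 12.07 and 11.51 at passage 1 and 9.02 and 8.52 at passage 3 and fell by 3.02 ± 0.05 (adjusted p = 0.00572), and Ccl3 fell by 1.86 ± 0.07. The other two risers were Ccl5 and Cxcl12, by 1.85 ± 0.33 and 0.97 ± 0.03. Beside these chemokines, 7 of 25 macrophage markers fell, and the 8 defining ones had summed intensities of 35900 and 24419 early and 13056 and 8103 late, and their part in the falls of Ccl9 and Ccl3 was not tested. The EGF receptor list had 1 faller among 16, the ligand Epgn, which fell by 1.65 ± 0.26. Among 21 NF-kB genes, 2 of which fell, the inhibitor Nfkbia fell by 0.88 ± 0.35 and the kinase Map3k8 fell by 1.75 ± 0.17; 2.69% of all genes fell. Without the early array of pair 1, 0 of the cytokine genes passed, and without that of pair 2, Ccl9, Cx3cl1 and Il1rn did; the EGF receptor and NF-kB calls passed in neither. With the pair number as a block Ccl5 and Nfkbia did not pass.

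Immediate early genes, which respond within minutes to growth factors, were lower in part. Of 20 members tested 5 fell and 0 rose, with a median of -0.56. Fos, an AP-1 subunit, read 11.93 and 11.25 at passage 1 and 8.57 and 9.08 at passage 3 and fell by 2.77 ± 0.84 (adjusted p = 0.00506). Klf4, a transcription factor of epidermal barrier genes, read 15.05 and 15.01 at passage 1 and 13.44 and 13.09 at passage 3 and fell by 1.76 ± 0.22 (adjusted p = 0.00597). Egr3 fell by 1.36 ± 0.15, Zfp36 fell by 1.36 ± 0.44, and Dusp1 fell by 1.21 ± 0.17. Fos and Klf4 did not overlap between passages. Fosl1, another AP-1 subunit, had a difference of -2.002 ± 0.10 (adjusted p = 0.0543), and Jun of 0.43 ± 0.39, without passing. With either early array left out, 0 of the list passed. With the pair number as a block Fosl1 passed too. A second Egr3 probe had a difference of 0.08.

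Of 33 genes of death receptor signalling, apoptosis and necroptosis, 3 rose and 1 fell, against 3.48% and 2.69% of all genes. Casp8 read 12.47 and 12.41 at passage 1 and 13.47 and 13.45 at passage 3, higher late in both pairs, with a difference of 1.02 ± 0.03 that did not pass (adjusted p = 0.106). Bcl2l11, the pro-apoptotic BH3 protein Bim, read 9.47 and 9.47 at passage 1 and 10.90 and 11.22 at passage 3 and rose by 1.59 ± 0.22 (adjusted p = 0.0161), though another of its 3 probes had a difference of -0.42. Casp6, an executioner caspase, rose by 1.09 ± 0.12, and Bid, which caspase-8 cleaves, by 0.95 ± 0.15. Ripk3, the kinase of necroptosis, read 13.17 and 13.03 at passage 1 and 12.20 and 12.14 at passage 3 and fell by 0.93 ± 0.05 (adjusted p = 0.0439), while its substrate Mlkl had a difference of 0.90 ± 0.36 that did not pass. The passages of these genes did not overlap, and with either early array left out 0 of the 4 passed; with the pair number as a block Bcl2l11 and Casp6 did. Of 38 interferon-stimulated genes 0 passed, and the pairs differed: the list's median was -0.10 in pair 1 and 1.25 in pair 2, with opposite signs in 20 of the 38. Isg15 read 14.27 and 12.17 at passage 1 and 13.44 and 13.91 at passage 3, and Rsad2, with the largest difference, read 8.54 and 8.05 at passage 1 and 10.10 and 11.38 at passage 3, 2.45 ± 1.25 (adjusted p = 0.0566). For both genes the early level of pair 2 was below that of pair 1. Of 18 MHC and antigen processing genes 0 passed as well.

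Of 20 glutathione and NRF2 target genes 1 rose and 3 fell, against 3.48% and 2.69% of all genes. Hmox1, heme oxygenase, read 15.37 and 14.67 at passage 1 and 12.92 and 12.34 at passage 3 and fell by 2.39 ± 0.09 (adjusted p = 0.00411). Of the glutathione transferases, Gsta4 fell by 1.91 ± 0.88 and Gstm1 fell by 1.02 ± 0.30, while Gsta3 rose by 0.78 ± 0.01. With the pair number as a block Hmox1 still passed, and these 3 did not. Among 25 hypoxia and glycolysis genes, 2 of which fell, the vasodilator peptide Adm fell by 1.05 ± 0.51 and the stress-response gene Ndrg1 fell by 0.90 ± 0.25; neither passed with the pair number as a block. Of 24 cholesterol synthesis genes 0 passed. Of 19 hair follicle genes 1 rose and 3 fell, against the same background. Krt75, a companion layer keratin, read 13.56 and 13.12 at passage 1 and 9.81 and 9.72 at passage 3 and fell by 3.58 ± 0.25 (adjusted p = 0.00025). Gli2, an effector of Hedgehog signalling, fell by 1.05 ± 0.15, and Lef1, one of Wnt signalling, fell by 0.95 ± 0.10. Hmox1 and Krt75 did not overlap between passages, and with either early array left out Krt75 was the 1 gene of these 4 lists that passed.

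Markers of macrophages and melanocytes were detected at both passages, and some of them fell. Macrophage markers, from a list of 25, fell in 7 and rose in 0, with a median of -1.38. Cd68, a lysosomal protein of macrophages, read 10.93 and 10.41 at passage 1 and 8.88 and 8.56 at passage 3 and fell by 1.95 ± 0.15 (adjusted p = 0.00995). Pf4, a chemokine of macrophages and platelets, read 13.19 and 12.23 at passage 1 and 9.52 and 8.82 at passage 3 and fell by 3.54 ± 0.18 (adjusted p = 0.0139). The 8 defining macrophage markers were well above background on every array, late ones included, but only 1 of them, Cd68, passed. With the pair number as a block 15 of the list fell. Melanocyte markers fell in 5 of 11, with summed intensities of the 5 defining genes of 51279 and 53858 early and 20403 and 20835 late. Pmel, a melanosome protein, read 13.75 and 13.62 at passage 1 and 11.24 and 10.86 at passage 3 and fell by 2.63 ± 0.18 (adjusted p = 0.00475), whereas Tyr, tyrosinase, was not tested because it was well above background on too few arrays. Kdr, a receptor of endothelial cells, fell by 2.49 ± 0.36 among 10 endothelial markers, and its second probe had a difference of -0.21. Cd1d1 rose by 2.27 ± 0.92 among 13 Langerhans and T cell markers. Langerhans cell markers summed to 620.3 and 573.4 early and 505.5 and 486.1 late, T cell markers to 728.7 and 608.4 early and 589.7 and 721.3 late, and the 4 endothelial markers to 1409 and 1188 early and 479.6 and 476.0 late. The T cell sums overlapped between passages and the Langerhans and endothelial sums did not, while no Langerhans or T cell defining marker passed. The 4 Langerhans markers lay near the floor, at 6.37 to 7.83, and H2-Aa was well above background on only 1 late array. The endothelial sums followed Kdr, since Pecam1, Vwf and Cdh5 had differences of -0.34 ± 0.04, -0.52 ± 0.03 and 0.18 ± 0.09 that did not pass. In these unsorted cultures fewer cells of a type and less RNA per cell cannot be told apart.

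The summed intensity of the 8 defining fibroblast markers was 2809 and 2811 early and 7266 and 5035 late, higher late in both pairs. That of the 8 keratinocyte markers was 536980 and 520700 early and 482090 and 479640 late, lower late in both pairs. Col1a1, the main fibroblast collagen, read 8.12 and 8.39 at passage 1 and 10.95 and 10.67 at passage 3, a difference of 2.56 ± 0.39 that did not pass (adjusted p = 0.0727). Dcn and Lum, defining proteoglycans of dermal fibroblasts, were near the floor on all 4 arrays; Dcn read 6.79 and 6.89 at passage 1 and 6.80 and 7.005 at passage 3. Col5a2 was the 1 of 21 that rose, by 2.07 ± 0.36 (adjusted p = 0.0104), a count near the 3.48% of all genes. Of the 8 defining markers 0 passed. Beside Col1a1, the differences of Pdgfrb, Col1a2, Thy1 and Col3a1 were 1.16 ± 0.52, 0.96 ± 0.72, 0.80 ± 0.38 and 0.48 ± 0.02. Those of Lum, Dcn and Pdgfra were 0.10 ± 0.03, 0.06 ± 0.08 and -0.12 ± 0.01. The summed intensity was higher late, as were Fn1, Acta2, Tagln and Cnn1, which fibroblasts also make. The part of fibroblasts in those rises was not tested. With the pair number as a block 5 of the 21 fibroblast markers rose, Col1a1 among them. With either early array left out, 0 of the macrophage, melanocyte and fibroblast markers passed; Kdr passed without that of pair 2, and Cd1d1 passed in neither case.

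**Figure D4:**
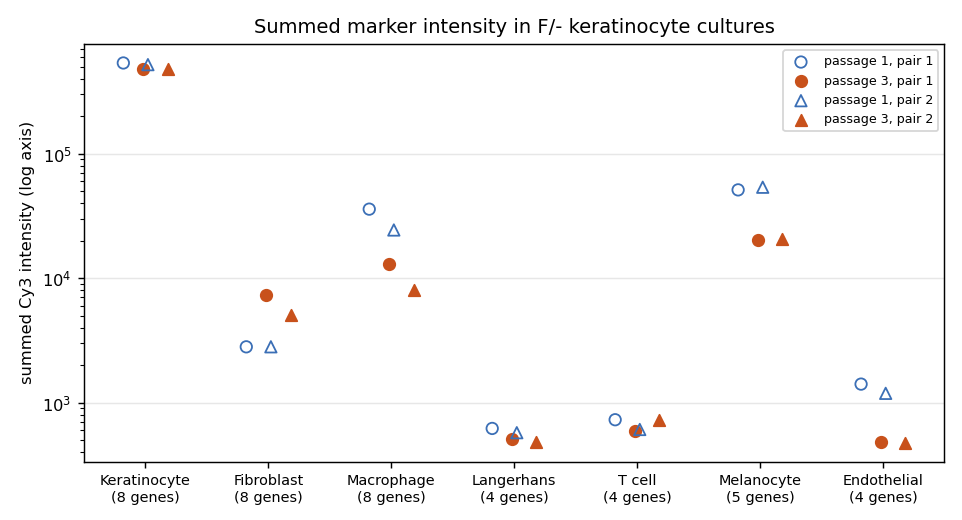
Summed Cy3 intensity (log axis) of marker genes of 7 cell types in each of the 4 F/- samples; open blue symbols are passage 1, filled orange symbols passage 3, circles pair 1 and triangles pair 2. The macrophage, melanocyte and endothelial sums are lower at passage 3 in both pairs, the endothelial ones through Kdr, and the fibroblast sums are higher. The keratinocyte sums lie between 479640 and 536980 and are also lower at passage 3 in both pairs.

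The passage change of F/+ keratinocytes, in the Cy5 channel of the same arrays, was set beside that of F/-. In F/+, 2005 of 33686 probes (5.95%) passed, 3.38% higher and 2.57% lower late. The source name of both late F/+ samples gives the first passage, while their titles and passage entries give 3, and the latter were followed. The 2 changes share arrays, so array effects enter both. The test of the difference, made on the ratios within arrays, called 0 probes in limma. There 1971 probes had an unadjusted p under 0.05 and the smallest adjusted p was 0.813. This test rests on 4 arrays and can miss differences, so 0 calls do not show that the changes are equal. Each of the 24 genes named above for the largest changes passed in F/+ as well, in the same direction. Clu rose by 5.82 in F/- and 5.91 in F/+, and Cnfn fell by 6.94 in F/- and fell by 6.79 in F/+. The largest gaps among the 24 were for Nuak1, at 4.55 in F/- and 3.56 in F/+, Defb14, which fell by 6.92 in F/- and fell by 5.99 in F/+, and Ankrd1, at 4.18 and 3.27, with adjusted p-values of the difference of 0.865, 0.862 and 0.813. The cornified envelope list, of which 22 members fell in F/-, had 26 fallers in F/+ (over all genes 6.68% passed in F/+, 3.96% higher and 2.72% lower), with medians of -2.03 and -2.59. Mitosis genes had 5 fallers in F/- and 0 in F/+, with medians of -0.54 and -0.09, and replication genes 10 and 1, with medians of -0.70 and -0.23; no gene of either list passed the test of the difference. Lgr6, a receptor of hair follicle stem cells, read 6.59 and 6.38 at passage 1 and 8.71 and 8.37 at passage 3 in F/- and rose by 2.05 ± 0.08, against a difference of 0.77 in F/+ that did not pass; the adjusted p of the difference was 0.813. A call in one genotype and not in the other is thus not shown to be a difference for these genes.

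**Figure D5:**
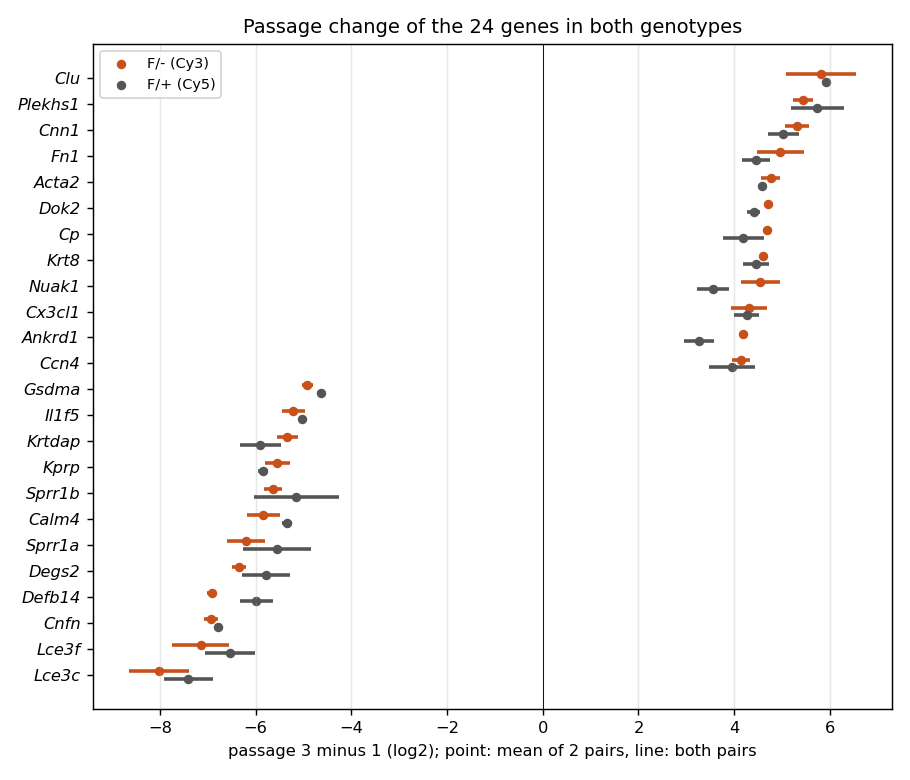
Change from passage 1 to passage 3 (log2) of the 24 genes with the largest changes, in F/- (orange, Cy3) and F/+ (grey, Cy5) keratinocytes; points are means of 2 pairs and lines join the pairs. Every gene moved the same way in both genotypes, and the widest separation is that of Nuak1, 4.55 against 3.56.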

How the data were processed

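Total RNA of cultured keratinocytes was hybridised on 4 arrays, F/- in Cy3 and F/+ in Cy5 with no dye swap, so each passage change was read within 1 dye. The authors deposited scanner output; the submitters' processing notes name version 9.1.3.1 of Agilent Feature Extraction. It holds a mean and a background intensity per spot and channel, and a log10 ratio of red over green, per the file headers of the deposited files. A deposited value table holds the same log10 ratios with the sign turned (green over red), which was used as such in 1 alternative. From the intensities of 43379 gene spots, the background was corrected (normexp, offset 50), arrays were normalized within (loess) and then between (Aquantile) in limma 3.58.1 and R 4.3.3, and spots of 1 probe were averaged, giving 41174 probes. Offset and floor shrink the changes of dim genes. Probes well above background in Cy3 on at least 2 of the 4 arrays, of either passage, were kept (33801). Of these, 115 with a missing value were not tested. Groups were fitted with limma's separate-channel model (spot correlation 0.742) and empirical Bayes, with Benjamini-Hochberg adjustment over all 33686 probes. The main fit had no block for the pair number, and the groups of both genotypes shared its estimate of the spread. The difference between genotypes was fitted on log ratios. The fit was tested on simulated data.

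Named genes were the 12 with the largest rise and the 12 with the largest fall in the smaller of the 2 pairs, among probes well above background on both arrays of a passage and of 1 sign in both pairs, plus up to 5 members with the largest change of each of 28 lists (636 entries). Further list members were named for their roles after their values were seen. Some list members are not reported here by name. Members and lists were chosen with earlier results of these data known. The brightest probe stands for a list gene. A fold given as "at least" sets the bright group's mean against the higher of the dim probe's own signal and the lowest signal well above background, per array. Gene names came from RefSeq accessions (21011 tested probes), current symbols (5071) or older symbols (2413), and 5191 kept the name in the file. Pair numbers were read as animals, since the design text describes cultures of 2 mice per genotype with RNA taken at both passages, though it does not tie each number to a mouse; deviations of same-numbered samples from their group means correlated at 0.252 in Cy3 and 0.0278 in Cy5. Alternatives to each step were run, and every array was left out in turn.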

Additional observations from a re-analysis of the deposited data

How the results depend on the processing

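For F/-, the 1024 higher and 815 lower calls became 1547 and 548 with each channel scaled to its median, 1595 and 1643 (3238 in all) in a fit of Cy3 alone, and 818 and 2333 (3151 in all) in that fit on the scanner-processed intensity, where both choices change. With the replicate number as a block, 796 probes were higher and 759 lower, 1555 in all (F/+ 1702). These totals were within 1.5 times of the counts without the block, but only 1292 of the 1839 F/- calls were kept. The calls of named genes that the block changed are given with those genes. The paired fit of Cy3 alone called 2106 and 2296, 4402 in all. Leaving out 1 array at a time, with the spot correlation taken from all 4, gave 115 to 3094 calls for F/- (30 to 1633 higher, 85 to 1461 lower) and 199 to 4555 for F/+. Leaving out an array leaves 1 sample at a passage, which is then assumed to vary like the others. The test of the difference between genotypes called 0 probes in the settings it was run in (offset, background, centring within arrays, filters, block and arrays left out), and 0 from the authors' deposited log10 ratios, an alternative chosen after seeing the data (smallest adjusted p = 0.916). List medians changed sign for junction genes (-0.007029 without the early array of pair 1, up to 0.2889 without that of pair 2), for NF-kB (0.0691) and hypoxia genes (0.1108) with median scaling, for Langerhans and T cell markers (-0.4324 with the scanner-processed intensity, Cy3 alone, and -0.0189 to 0.1845 with 1 array left out, lowest without the late array of pair 1) and for endothelial markers (-0.2518 to 0.04701 with 1 array left out, highest without the late array of pair 2). Medians near 0 whose pairs already differed in sign (basal, Cdk inhibitor, cholesterol, cytokine, EGF receptor and glutathione lists) also crossed 0 in at least 1 setting. No called probe changed direction in these settings. Signal over background limits the dimmest genes: 13 of 815 fallers were not well above background late and 21 of 1024 risers not early.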
